A study of Mus musculus with 32 samples.

Results

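ProB cells of healthy Pax5+/-;Myd88+/- mice were compared with those of wild-type (WT) mice, 4 arrays against 4. These 8 arrays, taken by the genotype and cell labels alone, are part of 32 arrays in the series, which also holds Pax5+/- and Pax5+/-;Myd88-/- proB cells and leukemic bone marrow. The study asked whether partial loss of Myd88, an adaptor of innate immune receptors, changes how often Pax5+/- mice develop B-cell precursor acute lymphoblastic leukemia after natural infection. In these healthy cells the comparison covers loss of a copy of both genes at once against loss of neither.

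Pax5+/-;Myd88+/- mice carried 1 inactive Pax5 allele and 1 inactive Myd88 allele in every cell, obtained by crossing Myd88-mutant mice with Pax5+/- mice on a mixed C57BL/6 and CBA background. WT mice carried neither. In the paper, the name of the Myd88-mutant line also lists strains other than C57BL/6 and CBA. Strain of origin near Myd88 may thus differ between the groups. Genes near Myd88 are counted below, but the strain of that DNA was not tested. Per the labels, B220+ bone marrow cells of both groups were enriched with magnetic beads from mice kept under specific pathogen-free conditions until 2 months of age. The labels name no drug or infection, which does not settle exposure after that age. Per the study's methods, proB cells were expanded with interleukin 7 on a layer of ST2 stromal feeder cells before RNA was made. The methods also give the mice as 2 to 3 weeks old, which differs from the labels, and the sources used here do not settle which account holds for these arrays. By the methods the material is a selected, dividing culture, which the labels do not mention, and the mutations were not restricted to B cells. The titles call the arrays biological replicates and do not say whether each came from its own mouse, so p-values below measure the spread between these arrays.

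Pax5 is the transcription factor that commits lymphoid progenitors to the B-cell lineage. It activates B-cell genes such as those of the pre-B-cell receptor and represses genes of other lineages, among them myeloid chemokines and receptors. Myd88 carries the signal of Toll-like receptors and of the receptors of the interleukin-1 family to Irak kinases and Traf6, which activate NF-kB and AP-1 and so induce cytokines, chemokines and feedback inhibitors.

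Values are log2 robust multi-array (RMA) levels, in which a difference of 1 is a 2-fold change, and levels of different genes are not compared. A probeset was called when its Benjamini-Hochberg adjusted p was under 0.05 and its mean differed by more than 2-fold. The arrays had a structure that touches several results. WT arrays 1 and 3 correlated at 0.998 with each other, as did WT arrays 2 and 4, whereas arrays of different WT pairs correlated at 0.991. Pax5+/-;Myd88+/- arrays correlated at 0.995 to 0.997 within the same pairs of numbers and at 0.991 to 0.996 between them. Every result below was therefore also computed with arrays 1 and 3 and arrays 2 and 4 of each genotype averaged into 2 values, here called the pair-averaged fit, and against each WT pair alone. The groups also differed in sex-linked genes. Xist, the transcript of the inactive X, lay at 12.40 to 12.52 in Pax5+/-;Myd88+/- arrays and at 5.32 to 6.11 in WT arrays, and Y-linked genes ran the other way. Sex and genotype cannot be told apart here, so only autosomal probesets were counted. The mean level of 34 markers of stromal feeder cells was 7.39 to 8.0 in Pax5+/-;Myd88+/- arrays and 7.72 to 8.33 in WT arrays, with the higher values in arrays 1 and 3 of both genotypes. In bulk RNA of this kind, fewer cells of a type and less RNA per cell cannot be told apart.

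As a check of the label, genes of early B cells were read in both groups. Cd79a, a signalling chain of the B-cell receptor, lay at 12.36, 12.45, 12.42 and 12.55 in Pax5+/-;Myd88+/- arrays, against 12.64, 12.55, 12.43 and 12.51 in WT arrays. Vpreb1 and Igll1, which form the surrogate light chain, averaged 12.55 ± 0.21 and 12.99 ± 0.17 in Pax5+/-;Myd88+/- cells and 12.31 ± 0.35 and 12.82 ± 0.25 in WT cells (SD, n = 4 each). None of these 3 genes passed the test. They are also expressed outside the proB stage, and other proB genes differed between the groups, as Dntt and Bst1 below.

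Both targeted genes read lower in Pax5+/-;Myd88+/- cells. Myd88 lay at 8.78, 8.51, 8.69 and 8.59 in Pax5+/-;Myd88+/- arrays, against 9.39, 9.59, 9.22 and 9.63 in WT arrays. The groups did not overlap, the ratio of Pax5+/-;Myd88+/- to WT was 0.568, and the log2 difference was -0.81 ± 0.10 (SE, adjusted p = 2.8e-05). Pax5 lay at 11.15, 11.41, 11.02 and 11.26 in Pax5+/-;Myd88+/- arrays, against 11.53, 11.81, 11.63 and 11.81 in WT arrays, a ratio of 0.714 and a log2 difference of -0.48 ± 0.11 (SE, adjusted p = 0.0089). Pax5 was lower in every Pax5+/-;Myd88+/- array than in every WT array too. For each gene the 2-sided exact permutation p was 0.0286, the smallest that 4 against 4 arrays can give. In the pair-averaged fit the adjusted p was 0.0253 for Myd88 and 0.315 for Pax5. Neither gene was called, since both differences were under 2-fold.

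Of 20939 autosomal probesets, 205 were called (0.979%). Expression was higher in Pax5+/-;Myd88+/- cells for 127 of them (0.607%) and lower for 78 (0.373%), and they named 190 genes. In 202 of the 205 the 2 groups did not overlap, whereas 9.88% of all autosomal probesets had groups that did not overlap. Changes of more than 4-fold were found in 17 probesets that were higher and 15 that were lower. The called probesets were spread over the range of levels, and most other probesets lay close to 0.

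**Figure D1:**
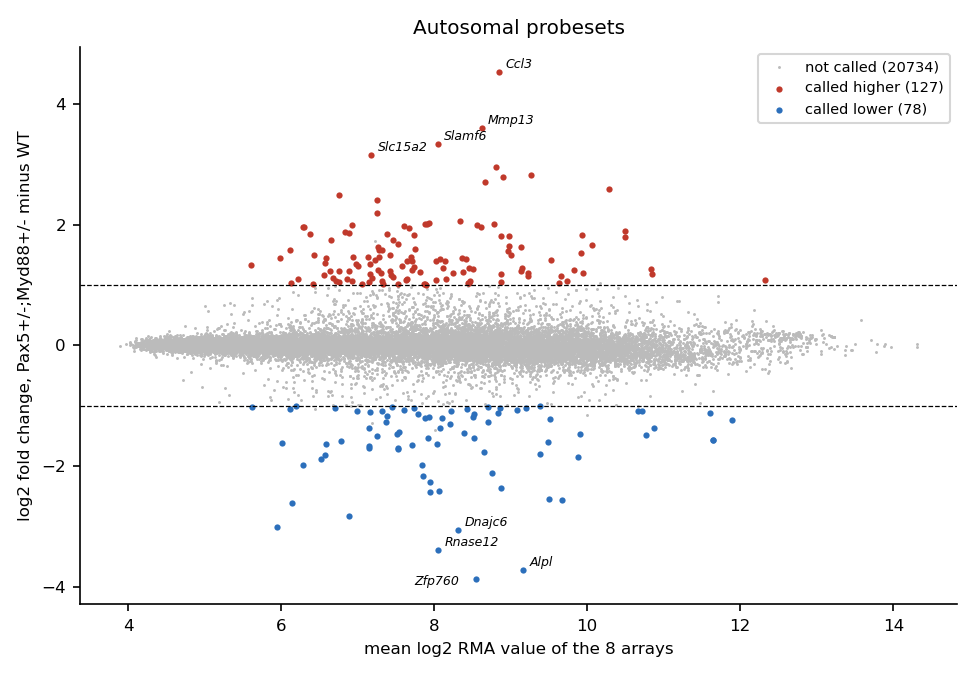
Each point is 1 autosomal probeset, with its mean log2 RMA value over the 8 arrays on the x axis and its log2 fold change, Pax5+/-;Myd88+/- minus WT, on the y axis; coloured points are the 127 higher and 78 lower called probesets. The named points are the extremes, Ccl3 and Mmp13 at the top and Zfp760 and Alpl at the bottom.

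How far the calls depended on a WT pair was examined for each probeset. Against both WT pairs taken alone, 147 of the 205 were called, 95 higher and 52 lower. None of the 205 changed sign, which was fixed in advance for the 202 whose groups did not overlap. The pair-averaged fit called 145, all of them among the 205. The 60 that it did not call include Dntt, Mpeg1 and Ccl9, whose WT pairs stood far apart, and Il18r1. For Il18r1 the Pax5+/-;Myd88+/- pairs stood further apart (means 7.935 and 8.895) than the WT pairs (7.285 and 6.745).

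**Figure D2:**
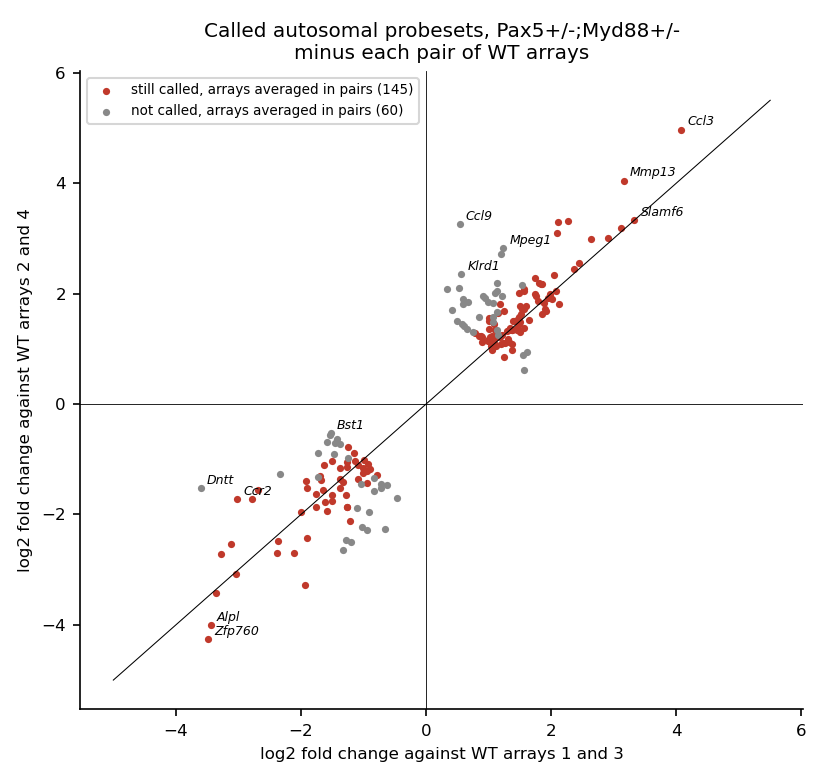
Each point is 1 of the 205 called autosomal probesets, with its log2 fold change of Pax5+/-;Myd88+/- cells against WT arrays 1 and 3 on the x axis and against WT arrays 2 and 4 on the y axis, red where the pair-averaged fit also called it (145) and grey where it did not (60). No called probeset changed sign between the WT pairs, which was fixed in advance for the 202 whose groups did not overlap. Ccl9 (0.54 against 1 and 3, 3.26 against 2 and 4) lies far from the diagonal.

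The largest rise was in Ccl3, a chemokine that attracts monocytes and other leukocytes. It lay at 10.64, 11.25, 10.97 and 11.58 in Pax5+/-;Myd88+/- arrays, against 7.02, 6.20, 7.05 and 6.08 in WT arrays. All Pax5+/-;Myd88+/- arrays were more than 3 log2 units above all WT arrays, and Ccl3 was 23.0-fold higher (log2 difference 4.52 ± 0.22, SE, adjusted p = 7.56e-10). Mmp13, a collagenase, followed, at 10.10, 10.64, 10.27 and 10.69 in Pax5+/-;Myd88+/- arrays, against 7.23, 6.49, 7.30 and 6.27 in WT arrays. It was 12.1-fold higher (3.60 ± 0.27, adjusted p = 1.12e-07). In both genes the WT arrays 1 and 3 were the higher WT pair, and the rise held against each WT pair, at 4.07 and 4.97 for Ccl3 and at 3.16 and 4.04 for Mmp13 (against WT arrays 1 and 3, then 2 and 4).

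Slamf6, a receptor of the SLAM family that lymphocytes use to bind one another, is also on the list of genes that Pax5 activates. Its levels were 9.45, 9.82, 9.63 and 9.95 in Pax5+/-;Myd88+/- arrays, against 6.27, 6.20, 6.5 and 6.56 in WT arrays. The groups were separated by almost 3 log2 units, Slamf6 was 10.1-fold higher (3.33 ± 0.10, adjusted p = 2.22e-12), and the WT pairs gave the same difference to within 0.01. The oligopeptide transporter gene Slc15a2 was 8.86-fold higher, with 8.44 to 9.10 in Pax5+/-;Myd88+/- arrays and 5.5 to 5.65 in WT arrays. Mfsd1, which encodes a lysosomal transporter, was 7.04-fold higher, with 10.60 to 10.70 in Pax5+/-;Myd88+/- arrays and 7.63 to 8.13 in WT arrays.

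The other large rises covered membrane, trafficking and lipid genes. Tspan2, a tetraspanin, was 6.89-fold higher, Mrgpra1, a G protein-coupled receptor, 6.03-fold, Akip1, a protein that binds protein kinase A, 5.65-fold, and Hook1, which links cargo to microtubules, 5.29-fold. Cyp2j6, an epoxygenase of fatty acids, was 4.56-fold higher and Osbpl3, an oxysterol-binding protein, 4.18-fold. The adjusted p of these 6 genes was at most 3.69e-07, and all 6 were also called in the pair-averaged fit. Mpeg1, a pore-forming protein of macrophages, was 4.07-fold higher, but its WT pairs differed, with 7.75 and 7.69 in WT arrays 1 and 3 and 6.30 and 5.95 in WT arrays 2 and 4. Its adjusted p was 0.000818, and 0.166 in the pair-averaged fit.

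**Figure D3:**
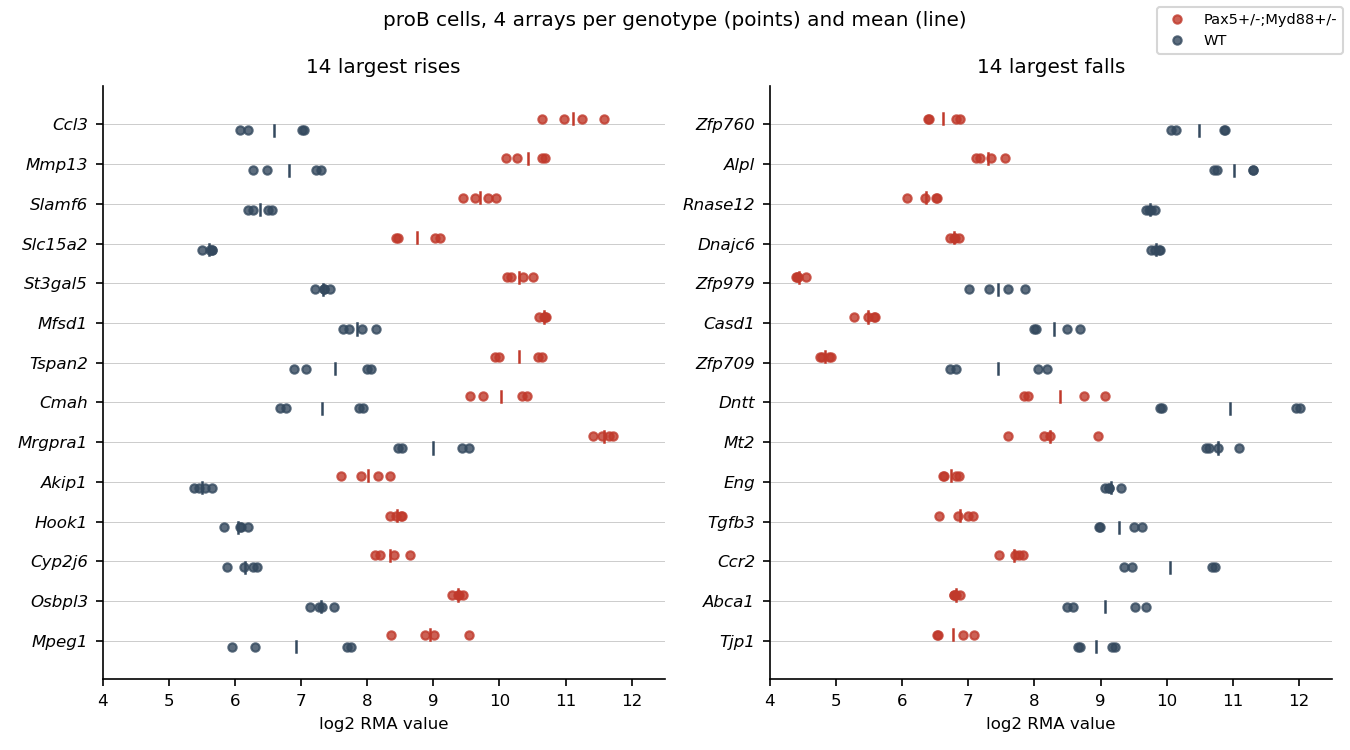
Points are the log2 RMA values (x axis) of the 4 arrays of each genotype and short lines their means, for the 14 called single-gene probesets with the largest rise (left) and the largest fall (right), with Pax5+/-;Myd88+/- above WT in each row. The genotypes do not overlap in any of the 28 genes because only genes without overlap were chosen. The WT arrays split into 2 pairs in genes such as Dntt, Mpeg1, Cmah and Zfp709.

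The largest fall was in Zfp760, a gene of the zinc-finger family. It lay at 6.88, 6.39, 6.81 and 6.40 in Pax5+/-;Myd88+/- arrays, against 10.06, 10.88, 10.14 and 10.86 in WT arrays, and was 14.6-fold lower (-3.87 ± 0.19, SE, adjusted p = 9.54e-10). The groups lay more than 3 log2 units apart. Other zinc-finger genes also fell, Zfp979 by 3.0 and Zfp709 by 2.61 on the log2 scale. Zfp979 was at 4.40 to 4.55 in all 4 Pax5+/-;Myd88+/- arrays and at 7.01 to 7.85 in WT arrays. Zfp709 was at 4.76 to 4.92 in Pax5+/-;Myd88+/- arrays, and at 6.73 to 8.19 in WT arrays.

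Alpl, the tissue-nonspecific alkaline phosphatase, lay at 7.35, 7.56, 7.17 and 7.12 in Pax5+/-;Myd88+/- arrays, against 10.72, 11.30, 10.76 and 11.31 in WT arrays. It was 13.2-fold lower (-3.72 ± 0.12, adjusted p = 7.7e-12), with every Pax5+/-;Myd88+/- array more than 3 log2 units below every WT array. Rnase12, a member of the ribonuclease A family, was 10.5-fold lower, and Dnajc6, the auxilin that uncoats clathrin vesicles, 8.31-fold. Dnajc6 was among the tightest of the named genes, at 6.72 to 6.86 in Pax5+/-;Myd88+/- arrays and 9.76 to 9.90 in WT arrays (adjusted p = 8.57e-14). Abca1, which exports cholesterol from cells, was 4.77-fold lower and Tjp1, a scaffold of tight junctions, 4.49-fold. Both were also called in the pair-averaged fit.

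The metallothionein genes Mt2 and Mt1, neighbours on chromosome 8 whose products bind zinc and copper, were both lower. Mt2 lay at 7.60, 8.15, 8.23 and 8.96 in Pax5+/-;Myd88+/- arrays, against 10.64, 11.10, 10.59 and 10.78 in WT arrays, and fell 5.83-fold (-2.54 ± 0.25, adjusted p = 3.07e-06). Its Pax5+/-;Myd88+/- arrays spread over more than 1 log2 unit and all lay below the WT arrays. Mt1 lay at 9.70 to 10.66 in Pax5+/-;Myd88+/- arrays and 10.83 to 11.64 in WT arrays (-1.09 ± 0.21, adjusted p = 0.0038). The Mt1 call was lost in the pair-averaged fit (adjusted p = 0.083), without Pax5+/-;Myd88+/- array 1 (-0.95) and without WT array 2 (-0.95), since the difference then came under 2-fold or missed the threshold.

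The sequence before the start of 3 of these genes is shown because each is known to be inducible, Mt2 by metals, Mmp13 through AP-1 and Ccl3 by innate immune signals. The 250 bases upstream of each RefSeq start (assembly GRCm38.p6) are printed on the gene's own strand, at chr8:94172368-94172617 (plus strand) for Mt2, chr9:7272264-7272513 (plus strand) for Mmp13 and chr11:83649379-83649628 (minus strand) for Ccl3. Capitals in Mt2 mark matches on either strand to TGCNCNC, the pattern used here for the metal-response core. In Mmp13 they mark the AP-1 heptamer TGANTCA. N is any base, and a stricter form of the core was not counted.
Mt2: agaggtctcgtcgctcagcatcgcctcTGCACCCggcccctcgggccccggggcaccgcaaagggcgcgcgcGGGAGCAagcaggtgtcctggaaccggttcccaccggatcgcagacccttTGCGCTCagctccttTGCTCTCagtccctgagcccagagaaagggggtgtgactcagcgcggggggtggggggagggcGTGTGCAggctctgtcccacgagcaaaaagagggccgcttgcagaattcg
Mmp13: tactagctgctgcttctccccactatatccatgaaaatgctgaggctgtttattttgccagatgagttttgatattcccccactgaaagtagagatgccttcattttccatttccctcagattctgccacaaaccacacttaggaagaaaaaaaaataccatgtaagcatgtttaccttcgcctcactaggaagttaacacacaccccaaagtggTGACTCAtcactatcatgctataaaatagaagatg
Ccl3: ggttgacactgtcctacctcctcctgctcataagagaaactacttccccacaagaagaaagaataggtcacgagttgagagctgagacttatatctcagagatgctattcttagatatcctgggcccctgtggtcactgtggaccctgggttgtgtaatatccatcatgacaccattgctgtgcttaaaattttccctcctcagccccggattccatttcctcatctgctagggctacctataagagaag
The Mt2 window held 5 matches to TGCNCNC. That number was reached by 113 (0.344%) of 32851 upstream windows of the same length, while 44.4% held at least 1. The Mt2 window also held 1 AP-1 heptamer, left in lower case. The Mmp13 window held 1 AP-1 heptamer, 35 bases before the start, as 6.75% of windows held at least 1, and the Ccl3 window held neither motif. These are matches of letters and were not tested as binding sites.

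Some of the called genes act on sialic acid. They were picked after their values were seen, with no list of the pathway to count them against, and Gne, the enzyme that starts sialic acid synthesis, differed by -0.135 and was not called (adjusted p = 0.577). St3gal5, which adds sialic acid to lactosylceramide and so makes the ganglioside GM3, was 7.77-fold higher, with 10.12 to 10.51 in Pax5+/-;Myd88+/- arrays and 7.21 to 7.43 in WT arrays. Cmah, the hydroxylase that makes the glycolyl form of sialic acid, was 6.51-fold higher, at 9.75, 10.42, 9.56 and 10.34 in Pax5+/-;Myd88+/- arrays, against 7.94, 6.68, 7.87 and 6.77 in WT arrays. The groups did not overlap, although the WT pairs lay more than 1 log2 unit apart. Casd1, which adds acetyl groups to sialic acid, was 7.07-fold lower, with 5.27 to 5.59 in Pax5+/-;Myd88+/- arrays and 8.0 to 8.69 in WT arrays. Siae, which removes such acetyl groups, was higher by 1.36 ± 0.11 (adjusted p = 2.05e-07). St3gal1, another sialyltransferase, was lower by 1.45 on 1 of its 2 probesets, while the other differed by only -0.10.

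Most receptors that signal through Myd88 were not called, but calls were more frequent than among all genes. Of 19166 autosomal genes represented by 1 probeset each, 183 were called (0.955%), 113 higher (0.590%) and 70 lower (0.365%), and the median log2 difference was 0.00. Without the fold limit 1197 passed the adjusted p (6.25%), 673 of them higher (3.51%) and 524 lower (2.73%). These shares are the background for the counts of lists, families and neighbouring genes below. The lists were chosen with earlier results of these data known. Of 15 receptors and co-receptors, 2 were called (13.3%), both higher, 8 were above 0 and the median was 0.02. An unadjusted p under 0.05 was reached by 6 of the 15 (40.0%, against 16.6% of all genes), and 3 passed the adjusted p. The 2 called were the chains of the interleukin-18 receptor, which are neighbours on chromosome 1. Il18r1, the binding chain, lay at 7.83, 8.87, 8.04 and 8.92 in Pax5+/-;Myd88+/- arrays, against 7.28, 6.66, 7.29 and 6.83 in WT arrays (1.40 ± 0.23, SE, adjusted p = 0.00073). Il18rap, the accessory chain, lay at 10.29 to 10.74 in Pax5+/-;Myd88+/- arrays, against 8.94 to 9.75 in WT arrays (1.2 ± 0.16, adjusted p = 6.72e-05). The groups did not overlap for either gene. The adjusted p was 0.178 for Il18r1 and 0.0817 for Il18rap in the pair-averaged fit, and against WT arrays 1 and 3 alone the Il18rap difference was 0.84. Il1rap, the shared accessory chain of interleukin-1 receptors, passed the adjusted p with a difference of -0.33. Tlr4, the receptor for bacterial lipopolysaccharide, differed by 0.55 (adjusted p = 0.14), Tlr2 by 0.15 and Tlr9 by -0.12, and none of these 3 passed.

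Below the receptors, 1 of 23 relay genes was called, with 11 above 0 and a median of -0.03. This was Irak3, the kinase-like protein that restrains signalling from Myd88. It lay at 10.27, 10.17, 10.20 and 10.29 in Pax5+/-;Myd88+/- arrays, against 9.21, 8.96, 9.10 and 9.08 in WT arrays. The groups were close to 1 log2 unit apart with little spread in either, Irak3 was 2.21-fold higher (1.15 ± 0.07, adjusted p = 7.65e-09), and it stayed called in the pair-averaged fit (adjusted p = 0.00141). Ticam2, the adaptor of the Myd88-independent branch, and Irf7, an interferon regulatory factor, passed the adjusted p at 0.39 and 0.54. Traf6, Irak2 and Tirap, the bridging adaptor of Myd88, differed by -0.05, 0.02 and -0.17 without passing. None of 20 NF-kB subunits, inhibitors and feedback regulators was called by limma or by the test of the study's methods, while 5 had an unadjusted p under 0.05, as 16.6% of all genes had, 15 were above 0 and the median was 0.10. Nfkbia, the inhibitor that NF-kB itself induces, differed by 0.35 (adjusted p = 0.23), by 0.02 against WT arrays 1 and 3 and by 0.68 against WT arrays 2 and 4.

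Genes induced by tumour necrosis factor through NF-kB contained 5 called members of 48, all higher, with 35 above 0 and a median of 0.11, and 19 passed the adjusted p without the fold limit, 15 higher and 4 lower. Besides Ccl3 these were Fosb, Cd69, Atf3 and Plek. Atf3, a transcription factor induced by stress, lay at 8.16, 8.05, 8.13 and 8.36 in Pax5+/-;Myd88+/- arrays, against 7.05, 7.11, 7.08 and 7.13 in WT arrays (1.08 ± 0.08, adjusted p = 5.52e-08). No array of one genotype came near the other. Cd69, an early activation antigen, was higher by 1.18 ± 0.11 and Plek, a substrate of protein kinase C, by 1.07 ± 0.08. Fosb, an AP-1 subunit, lay at 9.23, 9.0, 9.16 and 8.99 in Pax5+/-;Myd88+/- arrays, against 7.30, 8.19, 7.66 and 8.13 in WT arrays (1.27 ± 0.19, adjusted p = 0.000258), and was the 1 of the 5 that the pair-averaged fit did not call (adjusted p = 0.12). Jun, Dusp1 and Zfp36, immediate-early genes of the same list, passed the adjusted p with differences of 0.94, 0.78 and 0.74. The cytokine genes of the list did not move with them, with Tnf at -0.28, Il6 at 0.03 and Il1b at 0.04.

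Of 53 interferon-response genes, 2 were called higher and 1 lower, 31 were above 0 and the median was 0.07. Ly6e, an interferon-induced surface protein, lay at 12.74 to 12.94 in Pax5+/-;Myd88+/- arrays and at 11.74 to 11.80 in WT arrays (1.08 ± 0.07, adjusted p = 3.18e-08). Rsad2, the antiviral protein viperin, was higher by 1.06 ± 0.11 and came under 2-fold without Pax5+/-;Myd88+/- array 2 (0.99) or array 4 (0.97). Gbp3, a guanylate-binding GTPase, was lower by 1.08 ± 0.11. All 3 were called in the pair-averaged fit. Apobec3, a deaminase that restricts retroviruses and is on no list, was higher on both of its probesets, by 1.64 and 1.80.

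Among 38 genes that Pax5 activates, 1 was called higher and 3 lower, 19 were above 0 and the median was -0.01. Without the fold limit 13 passed, 4 higher and 9 lower. The higher one was Slamf6. Spib, an Ets-family transcription factor of B cells, lay at 8.07 to 8.48 in Pax5+/-;Myd88+/- arrays and 9.26 to 9.54 in WT arrays (-1.11 ± 0.14, adjusted p = 6.2e-05), and its adjusted p was 0.0652 in the pair-averaged fit. Bst1, a surface enzyme of B-cell precursors, lay at 8.19, 7.98, 8.44 and 8.15 in Pax5+/-;Myd88+/- arrays, against 9.70, 8.67, 9.73 and 8.76 in WT arrays (-1.02 ± 0.23, adjusted p = 0.0117). Its difference was -1.52 against WT arrays 1 and 3 and -0.53 against WT arrays 2 and 4, the pair-averaged fit gave an adjusted p of 0.371, and leaving out Pax5+/-;Myd88+/- array 2, WT array 1 or WT array 3 brought it under 2-fold. Rapgef5, an exchange factor for Rap GTPases, was lower by 1.0 ± 0.06 and lay at the edge of the 2-fold limit. It was tight, with 8.80 to 8.97 in Pax5+/-;Myd88+/- arrays and 9.83 to 9.98 in WT arrays, yet fell below the limit without Pax5+/-;Myd88+/- array 1 or 2 or WT array 3 or 4 (-0.97 to -1.0). Siglecg passed the adjusted p at -0.96, and Irf4 and Cd22 at 0.71 and 0.66.

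Genes that Pax5 represses moved in 1 direction where they were called. Of 40 tested, 7 were higher (17.5%, against 0.590% of all genes) and none lower (0.365% of all genes). In the list 29 were above 0 and the median was 0.13. Without the fold limit 15 passed, 13 higher and 2 lower. The 7 were Ccl3, Ccl9, Klrd1, Mmp14, Atf3, Ramp1 and Flt3, and the pair-averaged fit called 3 of them, Ccl3, Atf3 and Flt3. Ccl3 and Atf3 were also counted above among the genes induced through NF-kB. Flt3, a cytokine receptor of early progenitors, lay at 10.02 to 10.26 in Pax5+/-;Myd88+/- arrays and 8.91 to 9.37 in WT arrays (1.04 ± 0.10, adjusted p = 1.18e-06), and came under 2-fold without WT array 2 (0.97) or WT array 4 (0.97). Mmp14, the membrane-bound protease that activates other matrix metalloproteinases, lay at 9.05, 9.03, 9.16 and 9.14 in Pax5+/-;Myd88+/- arrays, against 8.03, 7.29, 8.01 and 7.23 in WT arrays (1.46 ± 0.26, adjusted p = 0.00154). Here all Pax5+/-;Myd88+/- arrays were alike and the WT arrays were not, and the adjusted p was 0.23 in the pair-averaged fit.

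The remaining 3 rested on WT arrays 2 and 4. Ccl9, a chemokine of myeloid cells encoded near Ccl3, lay at 11.11, 11.70, 11.26 and 11.73 in Pax5+/-;Myd88+/- arrays, against 10.86, 8.25, 10.97 and 8.12 in WT arrays (1.90 ± 0.50, adjusted p = 0.0315). The WT pairs thus lay further apart than the genotypes, with a difference of 0.54 against WT arrays 1 and 3 and an adjusted p of 0.506 in the pair-averaged fit. Klrd1, a receptor of natural killer cells, differed by 0.56 against WT arrays 1 and 3 and 2.36 against WT arrays 2 and 4, and Ramp1, a receptor-modifying protein, by 0.42 and 1.71. The call of each of these 3 genes was lost without Pax5+/-;Myd88+/- array 2 or 4 or WT array 2 or 4, and that of Ccl9 also without Pax5+/-;Myd88+/- array 3, with adjusted p from 0.0525 to 0.141.

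**Figure D4:**
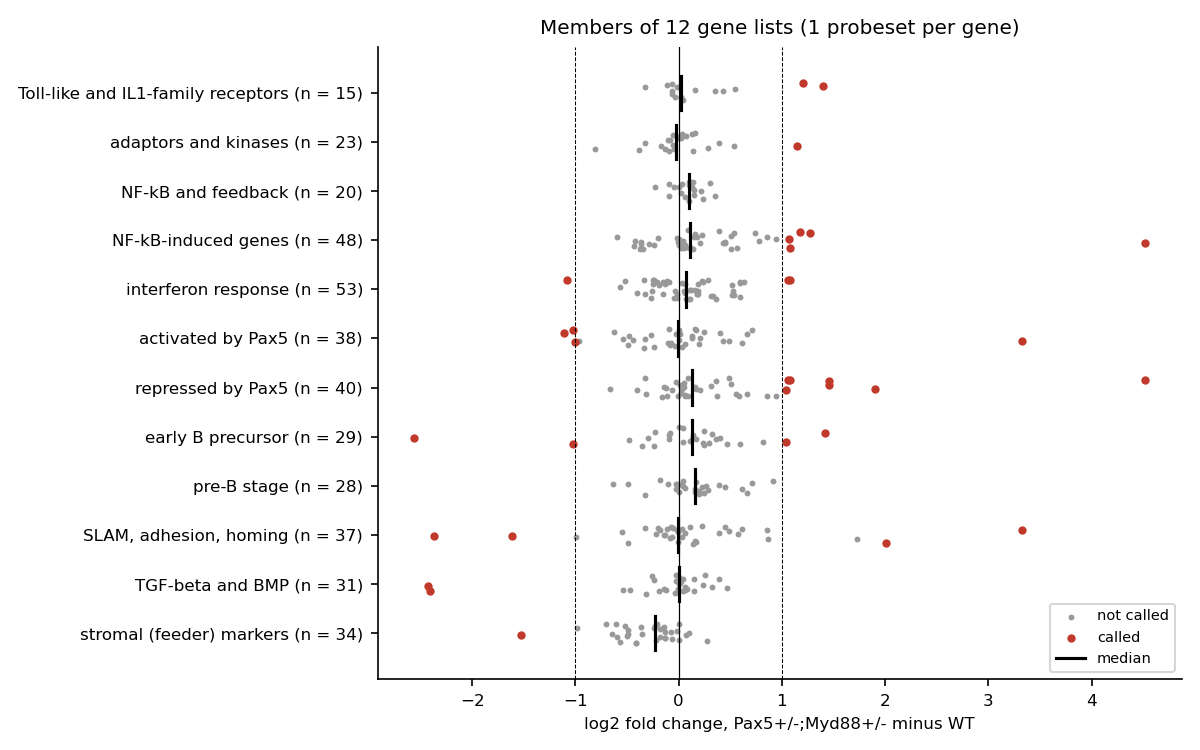
Each point is the log2 fold change (x axis), Pax5+/-;Myd88+/- minus WT, of 1 member gene of 12 gene lists (rows); coloured points are called, and the line in each row is the median of the list. Medians lay between -0.23 and 0.16 in these 12 lists, and Ccl3 and Slamf6 stood far outside the other members of their lists.

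Genes of early B-cell precursors, here called the proB list, gave 2 called higher and 2 lower of 29, with 18 above 0 and a median of 0.13. Dntt, the terminal transferase that adds bases at the junctions of rearranging immunoglobulin genes, showed the largest fall of the list. It lay at 7.90, 8.75, 7.84 and 9.07 in Pax5+/-;Myd88+/- arrays, against 12.02, 9.90, 11.96 and 9.93 in WT arrays, and was 5.91-fold lower (-2.56 ± 0.43, adjusted p = 0.00085). All Pax5+/-;Myd88+/- arrays were below all WT arrays, but the WT pairs were 2 log2 units apart. The difference was -3.60 against WT arrays 1 and 3 and -1.52 against WT arrays 2 and 4, and the adjusted p was 0.196 in the pair-averaged fit. Ly6d, which marks lymphoid progenitors that lean to the B lineage, lay at 7.84, 7.45, 8.26 and 8.17 in Pax5+/-;Myd88+/- arrays, against 6.31, 6.63, 6.64 and 6.47 in WT arrays (1.42 ± 0.16, adjusted p = 1.1e-05). Its groups did not overlap, and it was called in the pair-averaged fit. Flt3 and Bst1 were the other called members.

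Regulators of early B-cell precursors differed less. Ebf1, the factor that specifies B cells together with Pax5, was higher by 0.40 ± 0.07 (adjusted p = 0.00086), with 12.51 to 12.57 in Pax5+/-;Myd88+/- arrays and 11.99 to 12.26 in WT arrays. Il7r, the receptor of interleukin 7, averaged 12.47 ± 0.06 in Pax5+/-;Myd88+/- cells and 11.88 ± 0.74 in WT cells (SD, n = 4 each, adjusted p = 0.21). Rag1, a subunit of the recombinase, differed by 0.36 ± 0.23 and Kit, the receptor of stem cell factor, by 0.29 ± 0.22 (SE), and neither passed. For Il7r, Rag1 and Kit the sign turned with the WT pair, since all 3 were lower in Pax5+/-;Myd88+/- cells against WT arrays 1 and 3 (-0.05, -0.21 and -0.23) and higher against WT arrays 2 and 4 (1.23, 0.94 and 0.81). Of 28 preB genes none was called, 20 were above 0 and their median was 0.16. An unadjusted limma p under 0.05 was found for 12 (42.9%, against 16.6% of all genes). The adjusted p was passed by 5, 3 higher and 2 lower.

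Surface receptors for adhesion and homing contained 2 higher and 2 lower genes of 37. Itga5, the alpha chain of the fibronectin receptor, lay at 8.73, 9.05, 8.70 and 9.16 in Pax5+/-;Myd88+/- arrays, against 7.18, 6.73, 6.96 and 6.75 in WT arrays (2.00 ± 0.12, adjusted p = 7.77e-09). It was the second riser beside Slamf6, with groups that did not overlap. Ccr2, the receptor of the monocyte chemokine Ccl2, was 5.17-fold lower, at 7.47 to 7.82 in Pax5+/-;Myd88+/- arrays and 9.35 to 10.73 in WT arrays. Cxcr5, the receptor that guides B cells into follicles, lay at 5.29, 5.25, 5.02 and 5.27 in Pax5+/-;Myd88+/- arrays, against 6.33, 7.62, 5.97 and 7.36 in WT arrays (-1.61 ± 0.25, adjusted p = 0.000468). Its adjusted p was 0.146 in the pair-averaged fit. Ccr9, a homing receptor of gut and thymus, differed by 1.73 ± 0.50 and was not called (adjusted p = 0.0518).

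Of 31 genes of transforming growth factor beta and bone morphogenetic protein signalling, 2 were called, both lower. Tgfb3, a ligand, lay at 7.07, 6.56, 6.99 and 6.85 in Pax5+/-;Myd88+/- arrays, against 8.97, 9.50, 8.99 and 9.63 in WT arrays (-2.41 ± 0.17, adjusted p = 5.85e-08). Eng, the co-receptor endoglin, was 5.38-fold lower, with 6.62 to 6.86 in Pax5+/-;Myd88+/- arrays and 9.07 to 9.31 in WT arrays. Both were called in the pair-averaged fit. Stromal cells can also express Eng, Tgfb3, Tjp1 and Alpl, and the feeder marker list was lower in Pax5+/-;Myd88+/- arrays too, with a median of -0.23, 5 of 34 members above 0 and 1 called, the calcium-binding S100a6 (-1.53 ± 0.23, adjusted p = 0.107 in the pair-averaged fit). The median of the feeder list was -0.43 against WT arrays 1 and 3 and 0.06 against WT arrays 2 and 4. Within arrays 1 and 3 the mean feeder level was 7.96 to 8.0 in Pax5+/-;Myd88+/- cells and 8.31 to 8.33 in WT cells. Within arrays 2 and 4 it was 7.453 and 7.394 in Pax5+/-;Myd88+/- cells and 7.718 and 7.725 in WT cells. The median of the list was thus below 0 in both, at -0.285 in arrays 1 and 3 alone and -0.252 in arrays 2 and 4 alone. The part of the feeder level in these falls was not tested.

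Regulators of G-protein signalling, proteins that shorten the signal of chemokine and other G protein-coupled receptors, gave 3 called genes, all higher and on chromosome 1, of 20 Rgs genes tested, with 13 above 0 and a median of 0.04. The family was chosen after its values were seen. Rgs2 was higher by 1.95 ± 0.29, Rgs18 by 1.85 ± 0.15 and Rgs1 by 1.5 ± 0.10. Rgs18 was at 7.04 to 7.55 in Pax5+/-;Myd88+/- arrays and 5.29 to 5.69 in WT arrays, and Rgs1 was at 6.93 to 7.37 in Pax5+/-;Myd88+/- arrays and 5.54 to 5.76 in WT arrays. Rgs2 depended on the WT pair, with 8.40 and 8.39 in WT arrays 1 and 3 and 6.87 and 6.90 in WT arrays 2 and 4 (adjusted p = 0.13 in the pair-averaged fit). Chd7, a chromatin remodeller, was represented by 30 probesets, of which 7 were called higher and all 30 were above 0, between 0.24 and 1.47.

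Markers of other cell types gave no call in some lists and several in others, against 0.955% of all genes. None was called by limma or the test of the study's methods among 17 T-cell, 22 granulocyte and 10 platelet markers, of which 4, 1 and 2 had an unadjusted p under 0.05 (16.6% of all genes), and 1 of 14 natural killer markers was called, Klrd1. Of 21 monocyte and macrophage markers, Mpeg1 and Fcgr3, an Fc receptor for immunoglobulin G, were higher and Ccr2 was lower. Fcgr3 lay at 7.38, 7.72, 7.53 and 8.01 in Pax5+/-;Myd88+/- arrays, against 6.33, 6.34, 6.26 and 6.30 in WT arrays (1.35 ± 0.13, adjusted p = 1.8e-06). The mean level of the monocyte list was 6.75 to 6.85 in Pax5+/-;Myd88+/- arrays and 6.53 to 6.84 in WT arrays, and its part in the rises of Ccl3, Ccl9 and Mpeg1 was not tested. Of 12 dendritic-cell markers, Ly6d and Flt3 were higher, both of them also on the proB list, and the mean level of the list was 7.39 to 7.48 in Pax5+/-;Myd88+/- arrays and 7.18 to 7.32 in WT arrays, without overlap. Of 9 erythroid markers, Car2, a carbonic anhydrase, was higher by 1.65 ± 0.14 and Tfrc, the transferrin receptor, was lower by 1.24 ± 0.20, the last lost in the pair-averaged fit (adjusted p = 0.179).

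Growth and survival lists held no called gene in the limma fit, and none by the test of the study's methods. This was so for 24 genes of interleukin 7 and Stat5 signalling (median -0.12) and 48 cell-cycle genes (10 above 0, median -0.11). It was also so for 31 apoptosis genes, 35 Notch genes, 36 genes of oxidative phosphorylation and 11 of major histocompatibility complex class II. An unadjusted p under 0.05 was reached by 9 (37.5%), 15 (31.2%), 7 (22.6%), 9 (25.7%), 0 and 4 (36.4%) in that order. The share among all genes was 16.6%. Bcl2, the survival factor of lymphocytes and a member of both the Stat5 and the apoptosis list, differed by -1.15 with an adjusted p of 0.0957. Of 41 genes of Myc and ribosome biogenesis, which feed protein synthesis in dividing cells, none was called, 4 had an unadjusted p under 0.05, 3 were above 0 and the median was -0.23. That direction turned with the WT pair, since the median was 0.12 against WT arrays 1 and 3 and -0.58 against WT arrays 2 and 4. Of the cell-cycle genes 6 passed the adjusted p without the fold limit, all lower. Rrm2, a subunit of ribonucleotide reductase, came nearest to a call among the cell-cycle genes, at -0.98 (adjusted p = 4.23e-06).

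The called probesets were found on all autosomes, with the largest share on chromosome 12 (15 of 713, 2.10%) and the smallest on chromosome 5 (0.462%). Of the 50 genes that neighbour Myd88 on chromosome 9, 2 were called and 5 passed the adjusted p. Of the 50 that neighbour Pax5 on chromosome 4, 0 were called and 4 passed the adjusted p. The 2 near Myd88 were Rbms3, an RNA-binding protein, higher by 1.17 ± 0.07, and Itga9, an integrin chain, higher by 1.60 ± 0.24. Itga9 lost its call in the pair-averaged fit (adjusted p = 0.13) and in arrays 1 and 3 alone (0.88). Ccr2 (-2.37) also lies on chromosome 9, starting at base 124101918 against 119335934 for Myd88. It falls outside the 50 genes counted, and an effect of its position was not tested. Across the autosomes 15 pairs of called genes lay within 300 kb of each other, and 14 of these pairs moved the same way. They include Il18r1 with Il18rap, Ccl3 with Ccl9, Rgs1 with Rgs2, Mt1 with Mt2 and Cyp2j6 with Cyp2j9, and were listed after the values were seen. No share of neighbouring genes that move together was computed for genes that were not called.

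The Pax5+/- and Pax5+/-;Myd88-/- cells, which share the WT arrays, allow the same differences from WT to be set side by side. Pax5+/- cells had 204 called autosomal probesets against WT (0.974%) and Pax5+/-;Myd88-/- cells 249 (1.19%). Some of the largest differences had about the same size in all 3 genotypes. St3gal5 differed from WT by 2.96 in Pax5+/-;Myd88+/- cells, 2.94 in Pax5+/- cells and 2.72 in Pax5+/-;Myd88-/- cells. For Alpl the differences were -3.72, -3.73 and -2.94, for Eng -2.43, -2.36 and -2.54, for Abca1 -2.25, -2.43 and -2.38, for Hook1 2.40, 2.54 and 3.05 and for Osbpl3 2.06, 2.13 and 2.09, in the same order. Ccl3 was above WT in all 3 as well, by 4.52, 2.84 and 3.82.

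Other genes differed from WT by more than 2-fold in Pax5+/-;Myd88+/- cells alone of the 3. Slamf6 was 3.33 above WT in Pax5+/-;Myd88+/- cells and -0.23 and -0.36 from it in Pax5+/- and Pax5+/-;Myd88-/- cells. Set directly against Pax5+/- cells, it was higher by 3.56 in Pax5+/-;Myd88+/- cells. Zfp760 differed by -3.87, -0.34 and 0.60, Dntt by -2.56, -0.25 and -0.32, Mmp14 by 1.46, -0.24 and -0.59, Irak3 by 1.15, 0.26 and 0.40 and Atf3 by 1.08, -0.05 and 0.43, in the same order of genotypes. Against Pax5+/- cells the difference in Pax5+/-;Myd88+/- cells was -3.52 for Zfp760, -2.31 for Dntt, 0.89 for Irak3 and 1.13 for Atf3.

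A further group had about the same difference in the 2 genotypes that carry a Myd88 mutation. Zfp979 differed from WT by -3.0 in Pax5+/-;Myd88+/- cells, 0.35 in Pax5+/- cells and -3.12 in Pax5+/-;Myd88-/- cells, and Ccr2 by -2.37, 0.35 and -2.06. Ccr2 lies on chromosome 9, as Myd88 does. Apobec3 differed by 1.80, -0.13 and 1.59 and Ly6e by 1.08, -0.92 and 1.05, so that Ly6e ran the other way in Pax5+/- cells. In a last group the Pax5+/-;Myd88+/- and Pax5+/- cells lay on the same side of WT and the Pax5+/-;Myd88-/- cells did not, with Cmah at 2.70, 2.30 and 0.00 and Mt2 at -2.54, -3.18 and 0.70 in that order. Tgfb3 was below WT in Pax5+/-;Myd88+/- cells, at -2.41, and above it in Pax5+/- cells, at 1.38, with 0.17 in Pax5+/-;Myd88-/- cells. The Pax5+/-;Myd88-/- arrays, like the Pax5+/-;Myd88+/- ones, had high Xist, and the Pax5+/- arrays, like WT, had low Xist, so sex runs with the presence of a Myd88 mutation and cannot be told apart from it.

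**Figure D5:**
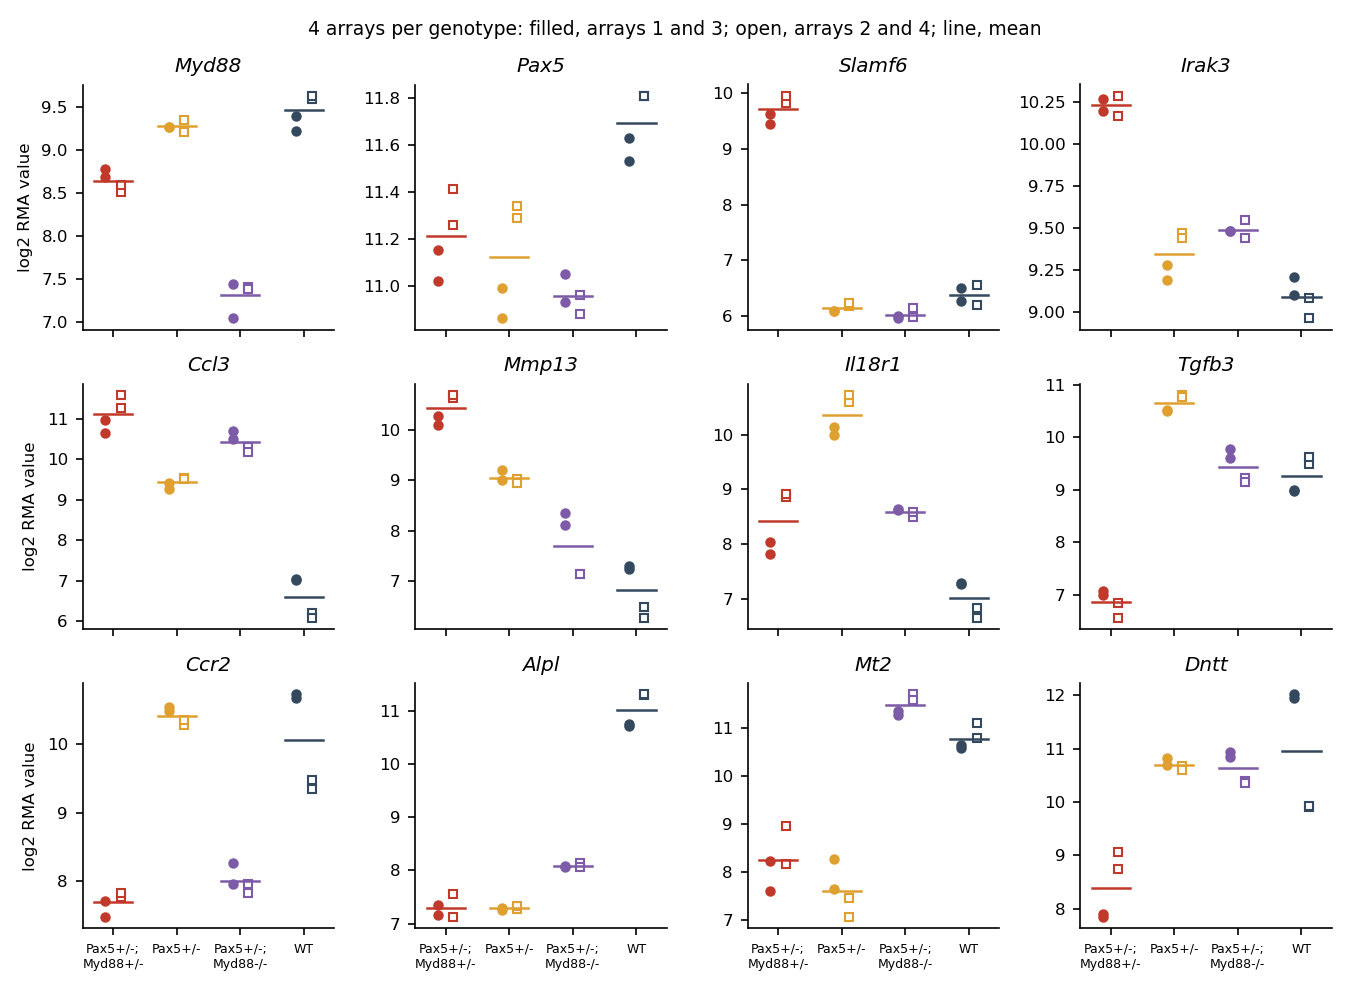
Each panel shows the log2 RMA value (y axis) of 1 gene in the 4 arrays of Pax5+/-;Myd88+/-, Pax5+/-, Pax5+/-;Myd88-/- and WT cells, filled for arrays 1 and 3 and open for arrays 2 and 4, with a line at the mean. Slamf6 and Irak3 are highest in Pax5+/-;Myd88+/- arrays, Irak3 with smaller differences from WT in Pax5+/- (0.26) and Pax5+/-;Myd88-/- cells (0.40), Alpl is low in all 3 mutant genotypes, and the WT arrays of Dntt split into 2 pairs.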

How the data were processed

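Expression was measured with microarrays in proB cells, described as cultured by the methods and as bead-sorted bone marrow by the labels. Per the labels and methods, the authors normalized the arrays by the robust multi-array average (RMA) in Affymetrix Transcriptome Analysis Console and deposited log2 values to 2 decimals, for 28944 probesets and 32 arrays. Affymetrix scanner intensities and detection calls were not used here, so the low end of the range is not marked as absent. Such summarised levels compress large changes, and precision is limited by 4 arrays per genotype.

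The log2 values were fitted with limma 3.58.1 (R 4.3.3; lmFit, eBayes) over the 16 healthy proB arrays of 4 genotypes, with Benjamini-Hochberg adjustment over all probesets, and calls needed adjusted p below 0.05 plus a log2 difference beyond 1 in either direction. All adjusted p in the text are from limma, except where the t-test is named. Probesets were named through GEO's platform annotation and RefSeq (GRCm38.p6): 21789 had 1 gene, 1621 several and 5534 none, and only autosomal ones were counted. The fit was tested on simulated data with known changes. For lists, each gene was represented by 1 probeset. Named were the 14 largest called single-gene rises and falls without overlap, the 2 largest called members of each of 30 lists, Myd88, Pax5, proB genes and members of the Myd88 and Pax5 lists, and further genes where the text says that they were chosen after their values were seen. Members and lists were chosen with earlier results of these data known. The alternatives were other array sets, normalizations, filters, thresholds, tests and pairings.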

Additional observations from a re-analysis of the deposited data

Results flagged for a closer look

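In 4 of the 152 groups of 4 arrays examined for the named genes, 1 array stood apart from the rest by the 95% limit of Dixon's test, which divides the gap to the nearest array by the range. Chance gives about 1 such group in 20, so the count is below what chance gives. Zfp979 in Pax5+/-;Myd88+/- cells had a ratio of 0.867 (4.41, 4.55, 4.40 and 4.42), and Cxcr5 in Pax5+/-;Myd88+/- cells one of 0.852 (5.29, 5.25, 5.02 and 5.27). Slc15a2 in WT cells had a ratio of 0.867 (5.65, 5.65, 5.63 and 5.5) and Ly6e in WT cells one of 0.833 (11.74, 11.79, 11.80 and 11.79). In all 4 the outlying array lay less than 0.4 log2 units from the others, far less than the difference between the genotypes.

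Data outside the counted autosomal probesets also carried signal. The same fit called 113 probesets without a chromosome and 15 that are X- or Y-linked. Xist differed by 6.74, with 12.40 to 12.52 in Pax5+/-;Myd88+/- arrays and 5.32 to 6.11 in WT arrays. The Y-linked Kdm5d differed by -3.56 (5.17 to 5.39 in Pax5+/-;Myd88+/- arrays, 8.36 to 9.08 in WT arrays), Eif2s3y by -4.33 (4.89 to 5.19 in Pax5+/-;Myd88+/- arrays, 9.16 to 9.52 in WT arrays) and Uty by -3.98 (5.24 to 5.46 in Pax5+/-;Myd88+/- arrays, 8.85 to 9.86 in WT arrays).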

How the results depend on the processing

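The count of 205 called probesets (127 higher, 78 lower) stayed within 1.5 times under most of the 31 alternatives. Leaving out 1 array gave 189 to 223 called (113 to 141 higher, 76 to 84 lower). The fit of all 32 arrays called 136 (80 higher), counting probesets without a chromosome 318 (157 lower, 50.6% higher against 62.0%), a threshold of adjusted p alone 1354 (767 higher, 587 lower) and a fold limit of 1.5 537 (341 higher, 196 lower). WT arrays 1 and 3 left out gave 327 (210 higher), arrays 2 and 4 alone 483 (285 higher, 198 lower), arrays 1 and 3 alone 199 (99 higher, 100 lower, 49.7% higher), and the pair-averaged fit 51 lower. The methods' t-test called 202 with its own limits on p and fold, and 154 after Benjamini-Hochberg adjustment. Of the listed genes, 32 were called, against 13 over all 32 arrays, 100 with adjusted p alone, 60 at a fold limit of 1.5, 49 without WT arrays 1 and 3, 18 in the pair-averaged fit and 74 in arrays 2 and 4 alone.

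For Myd88 and Pax5 only the p threshold was followed, without the fold limit, in 27 of the alternatives. Myd88 kept its direction and its side of that threshold. In arrays 2 and 4 alone its difference also passed the fold limit (-1.06). The Pax5 difference of -0.48 missed the threshold over all 32 arrays (adjusted p = 0.973), in the t-test after adjustment (0.102), with WT arrays averaged in pairs (0.0644), in the pair-averaged fit (0.315) and without WT arrays 2 and 4 (-0.37, 0.138). Of the named genes, those that turned sign were not called: without WT arrays 2 and 4, Cd79b was -0.17, Vpreb1 -0.06, Igll1 -0.033, Il7r -0.048, Rag1 -0.21 and Kit -0.23, and in arrays 1 and 3 alone Cd79b was -0.27, Vpreb1 -0.05, Il7r -0.09, Rag1 -0.43 and Kit -0.40. The cause of these moves was not tested. The replicate block called 206 probesets. Same-numbered arrays of the 4 numbers deviated with correlations of -0.27, -0.16, -0.14 and -0.27, so the numbers were not read as pairs. Of the 31 alternatives, 4 were added after the values were seen. These were the pair-averaged fit, a block of odd and even array numbers, arrays 1 and 3 alone and arrays 2 and 4 alone. Those that average or leave out a WT pair were planned, with earlier results of these data known.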
